A study of Mus musculus with 6 samples.

Results

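The small heat shock proteins described here are the products of 7 mouse genes, Hspb1, Hspb2, Hspb3, Hspb6, Hspb7, Hspb8 and Cryab, taken by gene symbol from a table of 35850 genes measured in optic nerve. Of these, 6 were at 1 TPM or more in at least 3 libraries and were among the 14364 genes tested; Hspb7 was not. The genes were picked with earlier results on these libraries known, among them the diet difference of Hspb1, so their diet differences are given as a description and carry no test of their own. Optic nerves came from mice at 6 weeks of age that form optic glioma, and RNA was measured in 3 libraries from a control diet (PicoLab 5053) and 3 from an obesogenic diet (an AIN-76A formula with 58% of energy from fat, with sucrose). Every mouse in both groups carried the same genotype, with Cre recombinase under the GFAP promoter, 1 floxed Nf1 allele and 1 Nf1 allele with the R681X mutation. No group without the Nf1 alleles or without Cre was used here. The GFAP promoter is active in the glial lineage, so loss of the floxed allele is limited to those cells and their descendants, and other cells keep 1 intact copy. The series title calls the diet exposure maternal. The labels do not say whether libraries came from single or pooled nerves, separate animals or separate litters, so any spread between them may be partly technical.

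Small heat shock proteins share a conserved alpha-crystallin domain and assemble into large, changing oligomers. They bind unfolding proteins without using ATP and hold them until chaperones of the Hsp70 class refold them or pass them on for degradation. Cryab, which encodes alphaB-crystallin, is a major protein of the lens and is also made in muscle, in oligodendrocytes and in astrocytes. Together with Hspb1 and the filament protein GFAP it builds up in Rosenthal fibres, the inclusions of astrocytes seen in Alexander disease and in pilocytic astrocytoma. Hspb2, Hspb3, Hspb6 and Hspb7 are known mainly from skeletal, cardiac and smooth muscle. Hspb8 works with the co-chaperone Bag3 to send damaged proteins to autophagy.

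All libraries held abundant transcripts of glia. Mbp, a myelin protein gene, was listed at 38440 to 41160 TPM in control libraries and at 31350, 15010 and 15840 TPM for obesogenic libraries 1, 2 and 3. The astrocyte water channel Aqp4 was at 220 to 484 TPM. Nf1 itself was at 3.10 to 4.28 TPM under the control diet and 1.55 to 2.92 TPM under the obesogenic diet, summed over transcripts, which does not separate the floxed from the mutant allele. Immunoglobulin genes took 20.6% of the TPM listed for obesogenic library 2, against at most 0.0439% in the others, which leaves a smaller share of that library to every other gene. Summed neuron markers (15 genes) were at 119 to 235 TPM in control libraries and at 1332, 364 and 2385 TPM for obesogenic libraries 1, 2 and 3. Control library 3 held transcripts of lens, with the lens gene Crybb2 at 9.81 TPM, against 0 TPM in the other 5.

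The family spanned more than 3 orders of magnitude in level, in TPM, which is per transcript length. Cryab was the most abundant at 844 ± 228 TPM (SD, n = 6), above 99.6% of the genes tested by its mean. It was followed by Hspb1 at 141 ± 54.9 TPM, Hspb8 at 70.5 ± 18.6 TPM, Hspb6 at 31.3 ± 6.26 TPM and Hspb2 at 21.4 ± 10.1 TPM. This order of the first 5 held in each of the 6 libraries, and the narrowest step was from Hspb6 to Hspb2, a ratio of 1.09 in control library 2. Hspb3 at 0.820 ± 0.643 TPM and Hspb7 at 0.606 ± 0.650 TPM were the least abundant, each under 1.9 TPM in every library. Hspb3 was the higher of the pair in 4 of 6 libraries, so their order is within the spread. Cryab alone gave 72.9% to 78.4% of the summed TPM of the 7 genes.

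**Figure D1:**
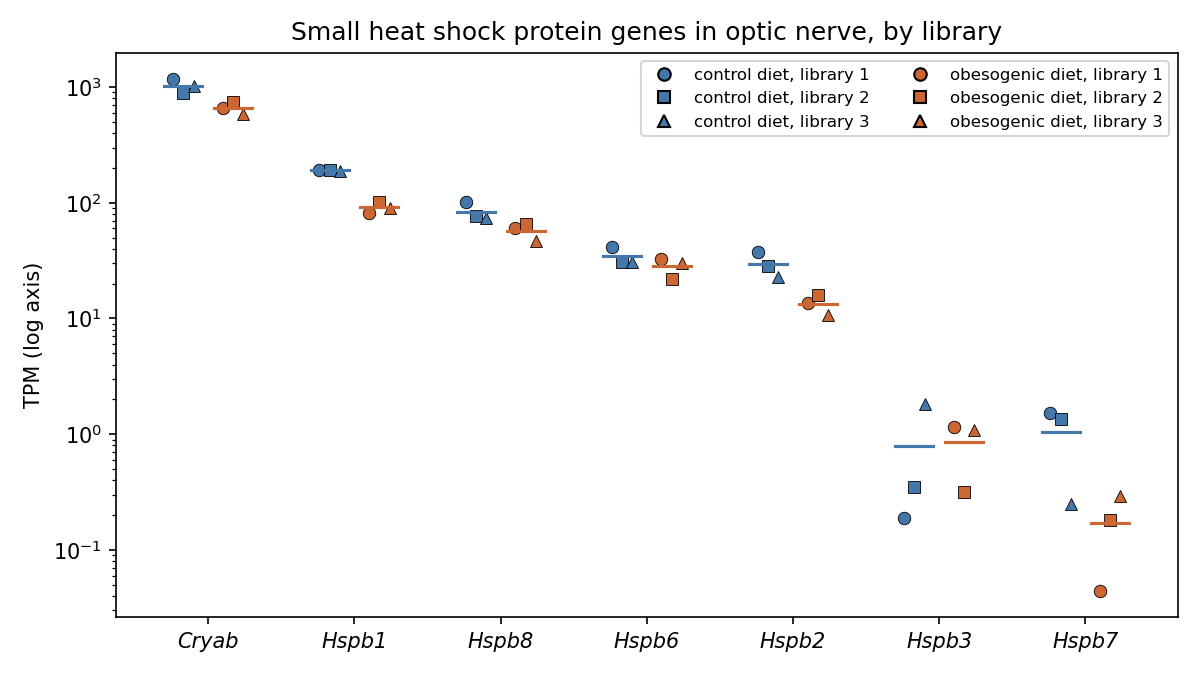
TPM of each of the 7 genes (log axis) in the 3 control libraries (blue) and 3 obesogenic libraries (orange), with a bar at the mean of each diet and genes ordered by mean level. Cryab sits highest at 585 to 1181 TPM and Hspb3 and Hspb7 lowest, all under 1.9 TPM; for Cryab, Hspb1, Hspb8 and Hspb2 the orange points lie below every blue point.

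Heat shock genes are classically switched on by heat shock factors, which bind inverted repeats of the unit GAA. Promoter windows of 300 bases, 250 before and 50 after a start site, were matched by symbol from RefSeq (GRCm38.p6) for 5 of the 7 genes, in 6 windows, since Hspb6 has a pair of start sites. Hspb2 and Cryab had no entry. The motif GAANNTTC, which reads the same on both strands, was present in 4 of these 5 genes, Hspb1, Hspb3, Hspb6 and Hspb8, and in 9.04% of the 27025 genes with a window. Hspb1 held it at 2 places, from bases -117 and -97 counted from the start site, and Hspb6 from base -120 of its downstream start site. Hspb8 held it just after the start site, from base 3 to base 10, and Hspb3 farther out, from base -224. In Hspb1, Hspb6 and Hspb8 the match was the same octamer, GAAGTTTC, which on either strand occurs in 1.35% of genes; this octamer was singled out after the matches were seen. The reverse arrangement TTCNNGAA (9.60% of genes) and the 3-unit form with NNGAA added after GAANNTTC, on either strand, (0.662% of genes) were in none of the 5. A TATAAA was found in Hspb3 and Hspb6, on either strand (15.7% of genes), and a CArG box, the site class of serum response factor, in none (1.81% of genes). These matches describe letters in the window and not binding.

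The stretches that hold the motif are shown 5′ to 3′ on the gene's strand, with GAANNTTC and TATAAA in capitals, to show the octamer that 3 of the genes share. They are the 150 bases before the start site of Hspb1 (chr5:135887769-135887918, plus strand) and of the downstream start site of Hspb6 (chr7:30553151-30553300, plus strand), and 30 bases around the motif in Hspb8 (chr5:116422844-116422873, minus strand) and Hspb3 (chr13:113663882-113663911, minus strand).
Hspb1: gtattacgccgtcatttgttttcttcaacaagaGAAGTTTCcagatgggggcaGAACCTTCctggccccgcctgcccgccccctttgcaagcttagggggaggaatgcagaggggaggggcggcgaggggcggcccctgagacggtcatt
Hspb6: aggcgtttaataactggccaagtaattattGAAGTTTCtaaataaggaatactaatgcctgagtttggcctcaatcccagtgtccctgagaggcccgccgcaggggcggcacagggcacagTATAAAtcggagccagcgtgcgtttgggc
Hspb8: agaagccaggaGAAGTTTCtaggctcgcga
Hspb3: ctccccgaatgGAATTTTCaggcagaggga

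Across diets, Hspb1, Hspb2, Hspb8 and Cryab had all 3 obesogenic libraries below the lowest control library in the deposited values, and Hspb3, Hspb6 and Hspb7 overlapped. Of all genes tested, 7.45% were lower without overlap in this way and 8.88% were higher without overlap; the 4 genes were chosen with this contrast known, so the count is not read against that share. A lower obesogenic mean was seen in 5 of the 6 tested members and in 42.3% of all genes. The median log2 difference of the 6 tested members was -0.59, beside 0.08 over all genes tested. By limma with adjustment over all genes, 0 of the 6 members passed, and 1 of 14364 genes did (0.00696%), the gene model Gm9836. At an unadjusted p under 0.05 stood 4 of the 6 members and 11.0% of all genes. In these bulk libraries fewer cells of a type and less RNA per cell cannot be told apart.

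Hspb1 (ENSMUSG00000004951; chromosome 5, 135887919 to 135889563 in GENCODE M21 on GRCm38), a chaperone of actin and intermediate filaments that stress kinases phosphorylate, was measured at 194, 191 and 186 TPM in control libraries 1, 2 and 3. Obesogenic libraries 1, 2 and 3 were at 81.3, 101 and 90.6 TPM. The control libraries lay close together, and 85.2 TPM separated the lowest of them from the highest obesogenic library. On the log2(TPM + 1) scale the difference was -1.06 (SE 0.16), from a mean of 190 ± 3.84 TPM to 91.0 ± 9.89 TPM (SD, n = 3 each). Nearly all of it came from a single transcript, Hspb1-201, with 96.9% to 99.5% of the gene's TPM in each library. The minor Hspb1-202, which starts inside the gene, was at 0.873 to 4.66 TPM and its diets overlapped.

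Hspb2 and Cryab are neighbours on chromosome 9 that point away from each other. In GENCODE M21 (GRCm38) Hspb2 (ENSMUSG00000038086) occupies bases 50751078 to 50752354 on the minus strand and Cryab (ENSMUSG00000032060) bases 50751325 to 50756636 on the plus strand. The start of the Hspb2 model lies 666 bases from that of Cryab-205, the most abundant Cryab transcript, and 553 bases from that of Cryab-201. A rarer transcript, Cryab-206, starts farther upstream inside Hspb2 and shares 252 exonic bases with it, which are 32.6% of Hspb2-201. Cryab-202, at 61.9 to 151.5 TPM, also starts inside the Hspb2 model, at base 50751877, but shares 0 exonic bases with Hspb2. The main Hspb2 transcript, Hspb2-202, shares 127 bases (23%) with Cryab. The sources used here do not state whether reads were assigned by strand, and reads in this stretch cannot be told apart between the genes.

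Cryab was at 1181, 882 and 1021 TPM in the control libraries and at 656, 741 and 585 TPM for obesogenic libraries 1, 2 and 3. The lowest control library stood 141 TPM above the highest obesogenic one. The log2 difference was -0.63 (SE 0.21), from 1028 ± 150 to 661 ± 78.5 TPM (SD, n = 3 each). As Cryab is also a lens gene, control library 3 bears on it: its relative Cryaa, a lens chaperone, was at 16.6 TPM there and under 0.64 TPM in every other library. Cryab in that library lay between the other control libraries, and without it the log2 difference was -0.63. Control library 1 was the highest for Cryab, and without control library 1 the log2 difference was -0.53.

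Hspb2, a chaperone first described as a partner of the myotonic dystrophy kinase, was at 37.3, 28.3 and 22.6 TPM under the control diet and at 13.5, 16.0 and 10.6 TPM under the obesogenic diet. The diets did not overlap, with a gap of 6.57 TPM, and control library 1 was the highest. Its log2 difference of -1.07 (SE 0.27) was of the size of that of Hspb1, with a wider spread: 29.4 ± 7.39 against 13.4 ± 2.71 TPM (SD, n = 3 each). Hspb2 was thus further below its control level than the divergent Cryab. The ratio of Cryab to Hspb2, which no library-wide scaling can change, was 31.7, 31.2 and 45.2 in control and 48.7, 46.2 and 55.1 in obesogenic libraries.

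At the level of transcripts, 14 of the 18 listed for the family were tested among 35408. Of these 14, 6 were lower without overlap in the obesogenic libraries (6.11% of all transcripts tested), 0 were higher without overlap (7.43%), and 0 passed the adjusted threshold, as did 2 of all transcripts (0.00565%). At an unadjusted p under 0.05 stood 6 of the 14 and 8.46% of all transcripts. The transcripts belong to genes chosen with this contrast known, and Cryab-201, Cryab-205 and Cryab-206 come from 1 gene. The counts are therefore not read against the shares over all transcripts. Cryab-205 gave 46.0% to 51.9% of Cryab and was at 560, 418 and 470 TPM under the control diet and 312, 384 and 291 TPM under the obesogenic diet. Its share thus varied little among the 6 libraries. Cryab-201 was at 293, 264 and 319 TPM under the control diet and 213, 120 and 162 TPM under the obesogenic diet. Obesogenic library 2 had the smallest share of this transcript, 16.2% of Cryab against 24.8% to 32.5% elsewhere, and the largest share of Cryab-202, 20.4% against 7.85% to 13.4%. The same library stood apart in Hspb2, where Hspb2-201 made up 55.8% of the gene, against 11.2% to 33.0% elsewhere. Hspb2-202 was at 28.0, 21 and 18.6 TPM under the control diet and 11.96, 7.10 and 7.11 TPM under the obesogenic diet, without overlap, whereas Hspb2-201 overlapped. Cryab-206, the transcript that shares exonic bases with Hspb2, was at 4.16 to 8.26 TPM under the control diet and 1.62 to 3.36 TPM under the obesogenic diet.

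**Figure D2:**
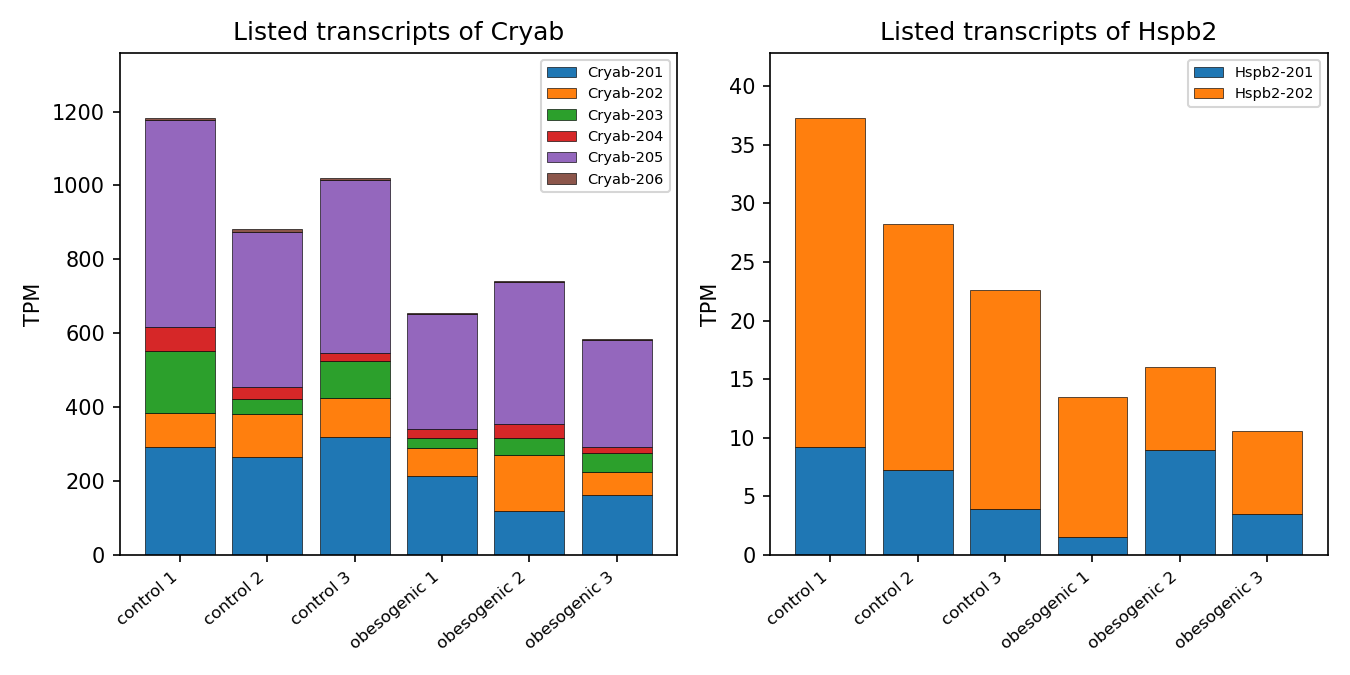
Stacked TPM of every listed transcript of Cryab (left, 6 transcripts) and Hspb2 (right, 2 transcripts) in each of the 6 libraries. Cryab-205 fills 46.0% to 51.9% of every Cryab bar, while in obesogenic library 2 Hspb2-201 fills 55.8% of the Hspb2 bar.

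Hspb8 (ENSMUSG00000041548; chromosome 5, 116408491 to 116422864, minus strand), the partner of Bag3, was at 102, 76.2 and 73.5 TPM under the control diet and at 59.9, 65.3 and 46.3 TPM under the obesogenic diet. The groups were 8.19 TPM apart, and control library 1 was the high one. The log2 difference was -0.54 (SE 0.22), from 83.8 ± 15.5 to 57.2 ± 9.80 TPM (SD, n = 3 each). Hspb8-201 carried at least 98.5% of it in every library.

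Hspb6 (ENSMUSG00000036854; chromosome 7, 30552178 to 30555443), a phosphoprotein of smooth muscle relaxation, was at 41.4, 30.9 and 30.9 TPM under the control diet and 32.9, 21.8 and 30.2 TPM under the obesogenic diet. Obesogenic library 1 lay above control libraries 2 and 3, so the diets overlapped, and the log2 difference was -0.28 (SE 0.24). The low value of the obesogenic group was that of library 2, the one with the immunoglobulin transcripts. This is the reverse of Hspb1, Hspb2, Hspb8 and Cryab, for which library 2 was the highest of the obesogenic libraries.

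Hspb3 (ENSMUSG00000051456), a partner of Hspb2 in muscle, was at 0.187, 0.347 and 1.82 TPM under the control diet and 1.16, 0.319 and 1.09 TPM under the obesogenic diet. It passed the filter on low values in just 3 libraries, and the diets overlapped fully. Hspb7 (ENSMUSG00000006221), known from heart muscle, was at 1.52, 1.34 and 0.251 TPM under the control diet and 0.0439, 0.180 and 0.292 TPM under the obesogenic diet. Obesogenic library 3 was above control library 3, and at such levels no order of the groups is read. Skeletal muscle markers were low too: their sum over 15 genes was 37.4 to 77.9 TPM under the control diet and 9.77 to 51.2 TPM under the obesogenic diet. A large part of several of these sums was 1 gene, Pygm. It was at 9.12, 19.7 and 15.2 TPM under the control diet and 27.5, 0.275 and 23.2 TPM under the obesogenic diet. The fast myosin genes Myh1, Myh2 and Myh4 were under 1 TPM in every library, and 7 of 15 markers passed the filter. The highest muscle sum, 77.9 TPM, was that of control library 1, which was also the highest library for every member except Hspb3. Summed markers of meningeal fibroblasts (3099 TPM), pericytes and smooth muscle (1463 TPM) and endothelium (1211 TPM) were highest in control library 1 too. The other cell type sums were highest in other libraries, among them astrocyte markers in control library 2 and oligodendrocyte markers in control library 3. Without control library 1 the log2 differences were -1.05 for Hspb1, -0.89 for Hspb2, -0.53 for Cryab, -0.40 for Hspb8 and -0.14 for Hspb6. The part of muscle or of these other cell types in these values was not tested.

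Of other genes of the family, Cryaa is given above. Hspb9 and Odf1, both known from testis, were listed at 0 in 5 of 6 libraries each and at no more than 0.449 TPM in the other one. Hspb11, a component of intraflagellar transport grouped with the family by name, was at 31.0, 30.1 and 33.0 TPM under the control diet and 28.0, 20.2 and 33.6 TPM under the obesogenic diet, with overlap.

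The choice of scaling bore on which members separated. After rescaling each library to the same total without immunoglobulin genes, Hspb1 and Hspb2 were still lower without overlap, and Cryab and Hspb8 were not (all genes, 5.71%). Obesogenic library 2 then reached 1122 TPM for Cryab, above the 1107 TPM of control library 2. For Hspb8 it reached 98.9 TPM, above 95.6 and 91.1 TPM in control libraries 2 and 3. After rescaling by the median ratio of genes to the mean library, Hspb1, Hspb2, Cryab and Hspb6 were lower without overlap and Hspb8 was not (all genes, 10.2%). Log2 differences over these scalings ran from -1.11 to -0.96 for Hspb1, from -1.12 to -0.98 for Hspb2, from -0.69 to -0.53 for Cryab and from -0.59 to -0.44 for Hspb8. Ratios between members are free of this choice. The ratio of Cryab to Hspb1 was 6.10, 4.62 and 5.49 in control and 8.07, 7.34 and 6.45 in obesogenic libraries, without overlap. Hspb1 made up 12.4% to 15.8% of the summed TPM of the 7 genes in control and 9.62% to 11.9% in obesogenic libraries. Cryab to Hspb8 stayed between 10.95 and 13.9 and overlapped.

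**Figure D3:**
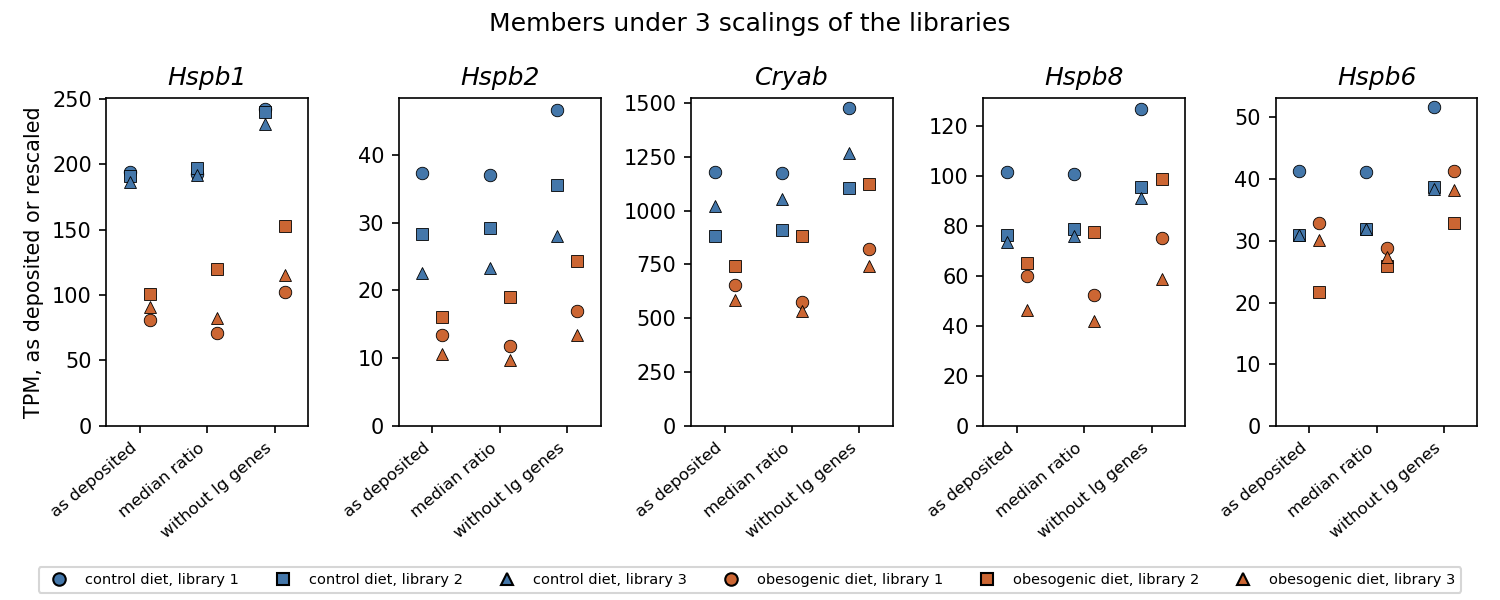
TPM of 5 members in control (blue) and obesogenic (orange) libraries, as deposited, after rescaling by the median ratio, and after rescaling without immunoglobulin (Ig) genes. Hspb1 and Hspb2 separate the diets under all 3 scalings, while the square of obesogenic library 2 rises among the control points of Cryab and Hspb8 without immunoglobulin genes (1122 TPM for Cryab, 98.9 TPM for Hspb8).

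Without obesogenic library 2, limma passed 860 of 14007 genes (6.14%; 1.25% passed in the lower direction). Hspb1 and Hspb2 were past the threshold in that fit, with log2 differences of -1.14 and -1.20. As both were picked with this contrast known, this shows how far the calls depend on 1 library and is not read as a test of the members. With obesogenic library 2 alone against the 3 control libraries, a comparison added after seeing the data that assumes it varies as they do, 350 genes passed (2.61%) and the log2 difference of Hspb1 was -0.91. That value holds the immunoglobulin share of the library: rescaled without those genes, Hspb1 was at 153 TPM there and at 231 to 242 TPM under the control diet. Among the chaperone and client genes named in what follows, Serpinh1 (adjusted p = 0.0216), Ptges3 (0.0478), Dnajc5 (0.0306) and Ywhag (0.0306) also passed in limma without obesogenic library 2.

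Of the other chaperone genes listed, none passed over all 6 libraries. Of 11 tested heat shock factors and regulators, 0 passed in either direction, 2 had a lower and 9 a higher obesogenic mean, and the median log2 difference was 0.24, beside 0.08 over all genes. Hsf1, the main heat shock factor, was at 48.4, 45.0 and 41.1 TPM under the control diet and 56.4, 45.5 and 57.9 TPM under the obesogenic diet, with overlap. Sirt1, a deacetylase that acts on Hsf1, was low in all libraries, at 1.11 ± 0.346 against 3.72 ± 1.29 TPM (SD, n = 3 each; limma adjusted p = 0.343). Mapkapk5, a stress kinase, and Hsf4, a heat shock factor of the lens, had higher obesogenic means with overlap, at 17.6 against 8.90 TPM and 3.68 against 1.14 TPM.

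Of 24 stress-inducible cytosolic chaperones, 0 passed, 7 had a lower and 17 a higher obesogenic mean, and the median log2 difference was 0.16. Among those were 3 of 24 that were lower without overlap (all genes, 7.45%). Serpinh1, the collagen chaperone, which resides in the endoplasmic reticulum, was at 204, 190 and 192 TPM under the control diet and 92.0, 97.5 and 105 TPM under the obesogenic diet. Its log2 difference of -0.98 (SE 0.15, limma adjusted p = 0.140) was close to that of Hspb1. Bag3, the co-chaperone of Hspb8, was at 45.3, 46.1 and 33.4 TPM under the control diet and 29.9, 26.2 and 23.5 TPM under the obesogenic diet (log2 difference -0.62, SE 0.21, limma adjusted p = 0.385). The inducible Hsp70 genes are near-identical copies, so reads may be split between them. Hspa1b was at 20.9, 17.6 and 25.3 TPM under the control diet and 13.6, 13.9 and 17.5 TPM under the obesogenic diet, a gap of just 0.160 TPM. Hspa1a was at 24.4, 20.7 and 27.3 against 15.8, 13.1 and 22.0 TPM, with overlap. Chac1, a glutathione-degrading enzyme in this list, had means of 1.94 and 4.71 TPM, with overlap.

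Of 29 constitutive chaperones tested, 0 passed, with 7 lower and 22 higher means and a median of 0.21. Ptges3, a co-chaperone of Hsp90, was at 10.4 to 16.7 TPM under the control diet and at 4.64, 0 and 1.26 TPM under the obesogenic diet. Hspa12b, an Hsp70 relative of endothelial cells, was at 16.3 ± 3.45 against 8.77 ± 0.982 TPM, and Dnajc5, a chaperone of synaptic vesicles, at 48.4 ± 4.36 against 85.1 ± 22.0 TPM (SD, n = 3 each). Cct3, a chaperonin subunit, overlapped at 27.9 against 11.5 TPM. Summed neuron markers were above all control libraries in each obesogenic library, and their part in the higher Dnajc5 was not tested. Of 19 chaperones and stress genes of the endoplasmic reticulum, 0 passed, with 8 lower and 11 higher means and a median of 0.05. Hspa5, its Hsp70, was at 410 ± 44.6 against 495 ± 52.8 TPM with overlap, and Pdia6, a disulfide isomerase, at 196 ± 9.59 against 243 ± 26.4 TPM. Xbp1 and Creld2, both high in secreting cells, were highest in obesogenic library 2, at 74.1 and 124 TPM, where B and plasma cell markers summed to 2915 TPM against at most 49.8 TPM elsewhere; their part in these values was not tested.

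The list of chaperone-assisted autophagy, the route that Hspb8 and Bag3 serve, had 14 tested genes of which 0 passed, 7 lower and 7 higher, with a median of -0.0024. In it 2 genes were lower without overlap and 2 were higher without overlap (all genes, 7.45% and 8.88%). The 2 lower ones were Bag3, as given above, and Flnc, a filamin of muscle that Bag3 helps to turn over. Flnc was at 20.1, 14.6 and 12.8 TPM under the control diet and 7.86, 12.4 and 6.48 TPM under the obesogenic diet. Sqstm1, the autophagy receptor, had a mean of 20.4 TPM under the control diet and 29.5 TPM under the obesogenic diet, with overlap. Ywhag, a 14-3-3 protein gene, was higher without overlap, at 195, 97.2 and 375 TPM under the obesogenic diet against 90.7 to 95.6 TPM in control. Summed neuron markers, given above, had the same order among these 3 obesogenic libraries, and their part in it was not tested. Among 13 tested filament and contractile genes that small heat shock proteins are known to protect, 0 passed, 9 means were lower and 4 higher, with a median of -0.40. Gfap was at 5157, 3486 and 2460 TPM under the control diet and 2787, 1512 and 1689 TPM under the obesogenic diet, with overlap. Vim, the vimentin gene, was at 605, 445 and 270 TPM under the control diet and 208, 525 and 154 TPM under the obesogenic diet, with overlap and with library 2 the highest. Des, the desmin gene, was at 7.06 ± 3.94 against 2.47 ± 0.185 TPM, Myl9, a myosin light chain of smooth muscle, at 149 ± 56.6 against 52.6 ± 15.6 TPM, and Tubb5, a tubulin, at 87.1 ± 10.7 against 173 ± 74.9 TPM (SD, n = 3 each).

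Several cell types known to make small heat shock proteins differed in marker level between the same libraries. Summed over 15 genes each, meningeal fibroblast markers were at 2112 to 3099 TPM under the control diet and 804 to 996 TPM under the obesogenic diet, with 12 of 15 lower without overlap (all genes, 7.45%). Pericyte and smooth muscle markers were at 911 to 1463 TPM against 506 to 521 TPM, with 9 of 14 tested lower without overlap and Pdgfrb listed at 0 in every library. Endothelial markers were at 704 to 1211 TPM against 424 to 539 TPM, with 8 of 14 tested lower without overlap. Oligodendrocyte markers were at 65580 to 72700 TPM under the control diet and at 58190, 28820 and 29820 TPM for obesogenic libraries 1, 2 and 3, with 5 of 15 lower without overlap. Astrocyte markers were at 6577 to 8353 TPM and at 7893, 3097 and 5443 TPM, with 1 of 15 lower without overlap. Their part in the lower Hspb1, Hspb2, Hspb8 and Cryab was not tested.

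Library by library, glial markers and members took these values on the log2 scale relative to the control mean. In obesogenic library 1 the median astrocyte marker was at 0.36 and the median oligodendrocyte marker at -0.12, with Cryab at -0.64, Hspb1 at -1.22, Hspb2 at -1.04, Hspb8 at -0.46, Hspb6 at -0.05 and Hspb3 at 0.38. In library 2 the astrocyte and oligodendrocyte medians were -1.09 and -0.87, with Cryab at -0.46, Hspb1 at -0.91, Hspb2 at -0.81, Hspb8 at -0.34, Hspb6 at -0.62 and Hspb3 at -0.33. In library 3 they were -0.44 and -0.99, with Cryab at -0.80, Hspb1 at -1.06, Hspb2 at -1.36, Hspb8 at -0.83, Hspb6 at -0.17 and Hspb3 at 0.34. Hspb6 and Hspb3 thus had the library order of the astrocyte median, highest in library 1 and lowest in library 2, while Cryab, Hspb1, Hspb2 and Hspb8 were highest in library 2. That order is not particular to astrocyte markers. The median skeletal muscle marker shared it, at -0.09, -1.64 and -0.93 in libraries 1, 2 and 3. So did the library factors of the median ratio rescaling, at 1.14, 0.84 and 1.10. What the shared order reflects was not tested. The meningeal median was -1.26, -1.49 and -1.53 in libraries 1, 2 and 3, lower in each than Cryab, Hspb1, Hspb2, Hspb8 and Hspb6. Hspb3 and Hspb7 are left out of this comparison. Their control levels were so low that even 0 TPM could not reach such values on this scale.

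**Figure D4:**
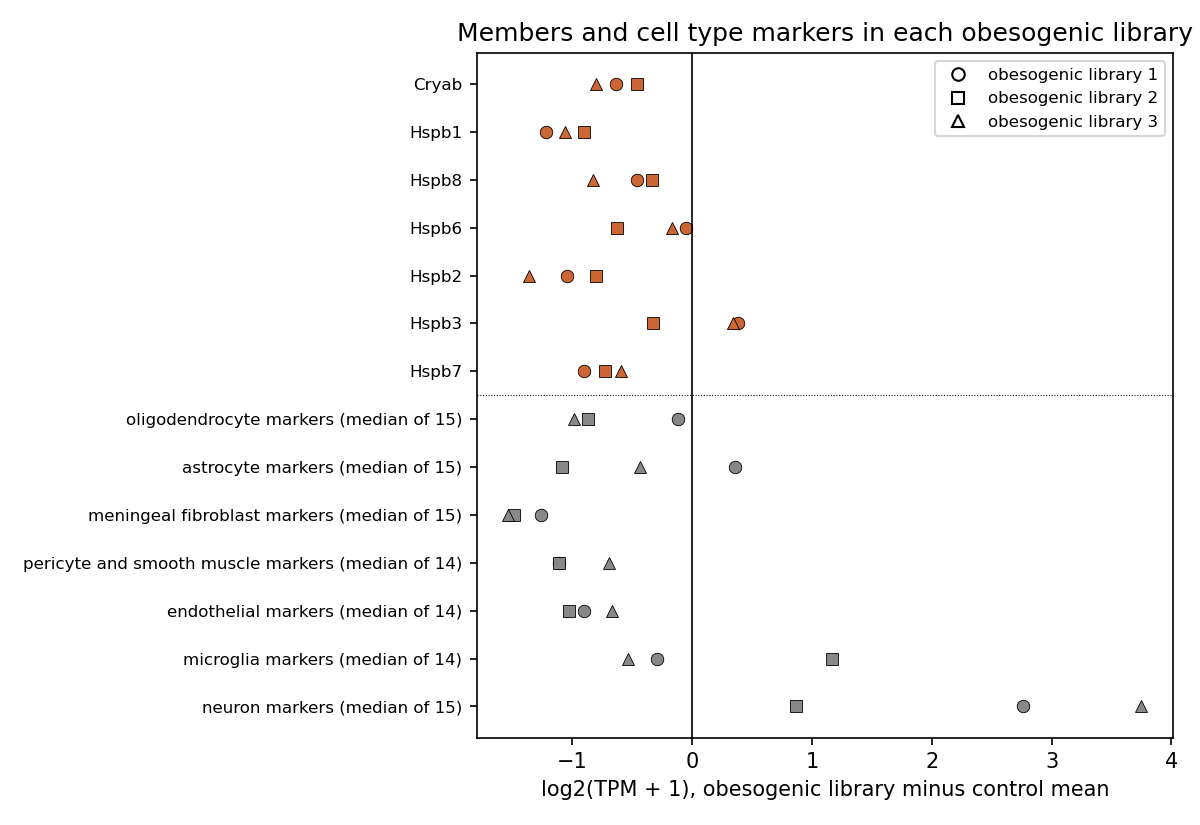
Each obesogenic library's log2(TPM + 1) minus the control mean, for the 7 members (orange) and as the median over tested markers of 7 cell types (grey), with libraries 1, 2 and 3 as circle, square and triangle. Hspb1 lies between -1.22 and -0.91, while the astrocyte median runs from 0.36 in library 1 to -1.09 in library 2 and the meningeal median from -1.26 to -1.53.

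For each tested member, all tested genes were ranked by Pearson correlation of log2(TPM + 1) over the 6 libraries, a description in which the points share library, composition and diet. Closest to Hspb1 were Laptm4a, a lysosomal membrane protein gene (r = 0.995), Adgra2, an adhesion receptor of vessels and pericytes (0.993), and Tmem134 (0.993). Laptm4a was at 782, 770 and 787 TPM under the control diet and 544, 573 and 553 TPM under the obesogenic diet, so like Hspb1 it varied little within a diet. Closest to Hspb2 were the matrix protease gene Mmp2 (0.995), the caveolar coat gene Cavin1 (0.994) and the matrix protein gene Efemp1 (0.993). As 108 genes had r of at least 0.95 with Hspb2 and 74 with Hspb1, these names are the top of longer lists. Nearest to Cryab were Crispld1 (0.996), Pcolce, an enhancer of procollagen processing (0.989), and Cd55, a complement inhibitor (0.989). Nearest to Hspb8 were Cd9, a tetraspanin (0.998), Epha3, an ephrin receptor (0.993), and Crls1, a cardiolipin synthase (0.992). Adgra2 and Crls1 were low, at 0.758 to 3.69 TPM and 0 to 3.78 TPM. Hspb6 was closest to Iffo1 (0.987), Gmeb1 (0.984) and Ccdc159 (0.983), and Hspb3, at its low level, to Cfap100 (0.993), Foxo3 (0.988) and Crkl (0.984).

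Among the members themselves, Hspb2 and Hspb8 were the pair with the highest correlation (r = 0.966 over 6 libraries, 0.95 after centring each diet), followed by Hspb2 with Cryab (0.947 and 0.725) and Hspb8 with Cryab (0.947 and 0.872). Hspb1 correlated with Hspb2 at 0.917 and with Cryab at 0.911, and within diets at 0.398 and 0.366. Against Hspb1, Hspb2, Hspb8 and Cryab, r was 0.435 to 0.515 for Hspb6 and -0.507 to -0.243 for Hspb3, whose level was near the filter. After centring each diet, r for Hspb6 was -0.649 with Hspb1, 0.09 with Hspb2, 0.13 with Hspb8 and 0.035 with Cryab. For Hspb3 it was then -0.856 to -0.36.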

How the data were processed

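Bulk poly(A) RNA of optic nerve was measured in 6 libraries, 3 per diet, prepared with a SMART-Seq mRNA kit per the labels' protocols. The authors deposited transcript abundances in TPM. Software listed in the submitters' processing notes was STAR 2.7.9a, featureCounts 2.0.3, DRAGEN and Subread; the sources used here do not state which gave TPM, nor the build or annotation. Of 109383 transcripts, 98.9% matched GENCODE M21 identifiers, as did all 18 of the family, so loci are given from GENCODE M21 on GRCm38. Repeated transcript lines were dropped and TPM summed per gene. Listed values summed to 788456 to 832193 TPM per library. TPM keeps no depth, so no counting interval is given, and a 0 means listed at 0.

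Genes at 1 TPM or more in at least 3 libraries were fitted by limma 3.58.1 (R 4.3.3) on log2(TPM + 1) values (lmFit, eBayes with trend), obesogenic minus control, two-sided, with Benjamini-Hochberg adjustment over all genes at a threshold of 0.05. This scale understates changes of low genes. Groups "lower without overlap" have every obesogenic library below every control library. An exact permutation test of 3 against 3 cannot give a p below 0.1 and was not used. The fit was checked on simulated data. The members and gene lists were chosen with earlier results of these data known. Named genes were all members and other family genes, up to 4 genes of smallest unadjusted p at a mean of at least 2 TPM per chaperone list, a few fixed genes, and the 3 nearest genes per tested member with an established symbol, plus markers that show which defining genes are near 0; Crybb2 was named after its values were seen. Some genes are not reported here. A planned comparison of member protein sequences was not run. Alternatives covered pseudocount, filters, scaling, the sample number as a block, the most abundant transcript and leaving out each library.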

Additional observations from a re-analysis of the deposited data

How the results depend on the processing

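The member log2 differences kept their sign under every alternative that could be fitted, except for Hspb3. Hspb3 ran from -0.11 to 0.36 when control library 1, control library 2 or obesogenic library 2 was left out, and did not pass the filter without one of the others (-0.11 without control library 1, -0.015 without control library 2). Leaving out each library gave -1.14 to -0.98 for Hspb1 and -1.24 to -0.89 for Hspb2; the calls without obesogenic library 2 (-1.14 and -1.20), and the call of Hspb1 at -0.91 without obesogenic libraries 1 and 3, an alternative added after seeing the data, are those described above. Cryab ran from -0.74 to -0.53, Hspb8 from -0.64 to -0.40 and Hspb6 from -0.40 to -0.11, with 0 calls. Over all genes 1 passed, with 0 passing under no filter on low values or a filter of 1 TPM in all libraries, and 0 to 860 when a library was left out. Over all transcripts 2 passed, with 1 at a pseudocount of 0.1 TPM, 0 under no filter, 0 under the stricter filter, and 0 to 3 when a library was left out. Without obesogenic library 2, 2 stress-inducible, 3 constitutive and 1 autophagy list gene passed (6.14% of all genes did in that fit), against 0 over all libraries and 0 without any other library. Aqp4, at -0.16 over all libraries, turned to 0.038 without obesogenic library 2 and 0.01 without obesogenic library 3. With the number in the sample titles as a block, 1 gene and 0 transcripts passed and no member did; same-numbered libraries correlated in their deviations at 0.00787, 0.177 and 0.132, which does not pair them, and obesogenic library 1 correlated best with control library 3 (0.107). The table's own column names carry other numbers, which join control library 1 with obesogenic library 1 (0.00787) and control library 2 with obesogenic library 3 (-0.133). The causes of these shifts were not tested. Hspb7 could be fitted only without a filter. Depth is unknown, which limits what can be said of Hspb3 and Hspb7.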
